A study of Mus musculus with 20 samples.

Results

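A set of 36 mouse genes of the unfolded protein response and the integrated stress response was followed in day 10 neurons given NMDA, a glutamate receptor agonist. The genes were picked by gene symbol from 21937 genes with a value in the RNA table, and all 36 were present. The cells were mouse day 10 neurons (strain label 159.2), and how they were grown is not stated in their labels. The NMDA group received 200 µM NMDA for 6 h and the DMSO group received only DMSO for 6 h, with 2 RNA libraries in each group. Per the labels, all cultures were rinsed in a balanced salt solution before and after the treatment, and no genetic change is named in either group. The series also holds chromatin libraries, 20 libraries in 10 groups in all. Their regions carry no gene or coordinate in the tables used here, so only RNA was analysed for these genes.

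The unfolded protein response begins at 3 sensors in the membrane of the endoplasmic reticulum (ER), namely IRE1 (encoded by Ern1), PERK (Eif2ak3) and ATF6. IRE1 splices the mRNA of Xbp1, ATF6 is cut to release a transcription factor, and PERK phosphorylates the translation factor eIF2α. The integrated stress response joins PERK to other eIF2α kinases, among them GCN2 (Eif2ak4), which senses amino acid shortage, and PKR (Eif2ak2), which senses double-stranded RNA. Phosphorylated eIF2α lowers protein synthesis but favours translation of Atf4 mRNA, and ATF4 in turn switches on genes of amino acid supply, the factor CHOP (Ddit3) and the phosphatase subunit GADD34 (Ppp1r15a). In neurons the pathway is known for its part in excitotoxic and degenerative stress and in plasticity.

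Depth, as reads recovered from the normalised counts, was 20149813 and 16833459 for the NMDA libraries and 20127348 and 15008112 for the DMSO libraries. Neuronal transcripts were abundant in both groups, and none of the 20 pan-neuronal markers was at 0. Their summed level was 260249 and 230029 normalised counts in the NMDA libraries and 278786 and 288608 in the DMSO libraries, with 10 of 20 lower and 1 higher after NMDA (limma, adjusted p under 0.05). The 19 fibroblast and mesenchyme markers summed to 263721 and 351573 after NMDA, against 143263 and 132564 in DMSO, and 17 of them were higher. The 20 neural progenitor markers summed to 37637 and 51326 after NMDA, against 21660 and 25526, with all 19 tested members higher, and 7 of 9 tested astrocyte markers were higher. Of 7 tested oligodendrocyte lineage markers, 3 were higher and 1, Mog, was lower. Endothelial and microglial markers were scarce, with summed levels of at most 585 and 331, and Cldn5 and P2ry12, which mark those cell types, were at 0 in every library. Of 5 tested endothelial markers 1, Kdr, was higher, and of 2 tested microglial markers 1, Tmem119, was higher. None of either list was called lower. Beside all these marker counts, 20.5% of all 13888 tested genes were higher and 21.5% lower. In bulk RNA, fewer cells of a type and less RNA per cell cannot be told apart. The part of these shifts in the results for the stress genes was not tested.

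Of the 36 genes, 10 rose and 6 fell after NMDA, and 20 did not pass (limma on log2(normalised count + 1), adjusted over 13888 tested genes, threshold 0.05). Among all tested genes 20.5% rose and 21.5% fell. Called genes thus made up 44.4% of the stress genes and 41.9% of all tested genes, so in this fit the share was close to the background. The median log2 change was 0.12 for the list and -0.01 for all genes. The values of the 2 groups did not overlap for 25 of the 36 genes, or 69.4%, against 74.5% of all tested genes. NMDA was higher without overlap for 17 of them and lower for 8, against 36.6% and 37.8% of all tested genes. Those that rose were the transcription factor genes Atf5 and Ddit3, the serine synthesis genes Phgdh and Psat1, the phosphatase subunit gene Ppp1r15a, the disulfide isomerase genes Pdia3, Pdia4 and Pdia6, and Creld2 and Edem1. Those that fell were Herpud1, Chac1, Xbp1, Sesn2, Asns and Ppp1r15b. Chac1 was the only one of the 36 that was both called and changed at least 2-fold, which 5.07% of all tested genes were.

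**Figure D1:**
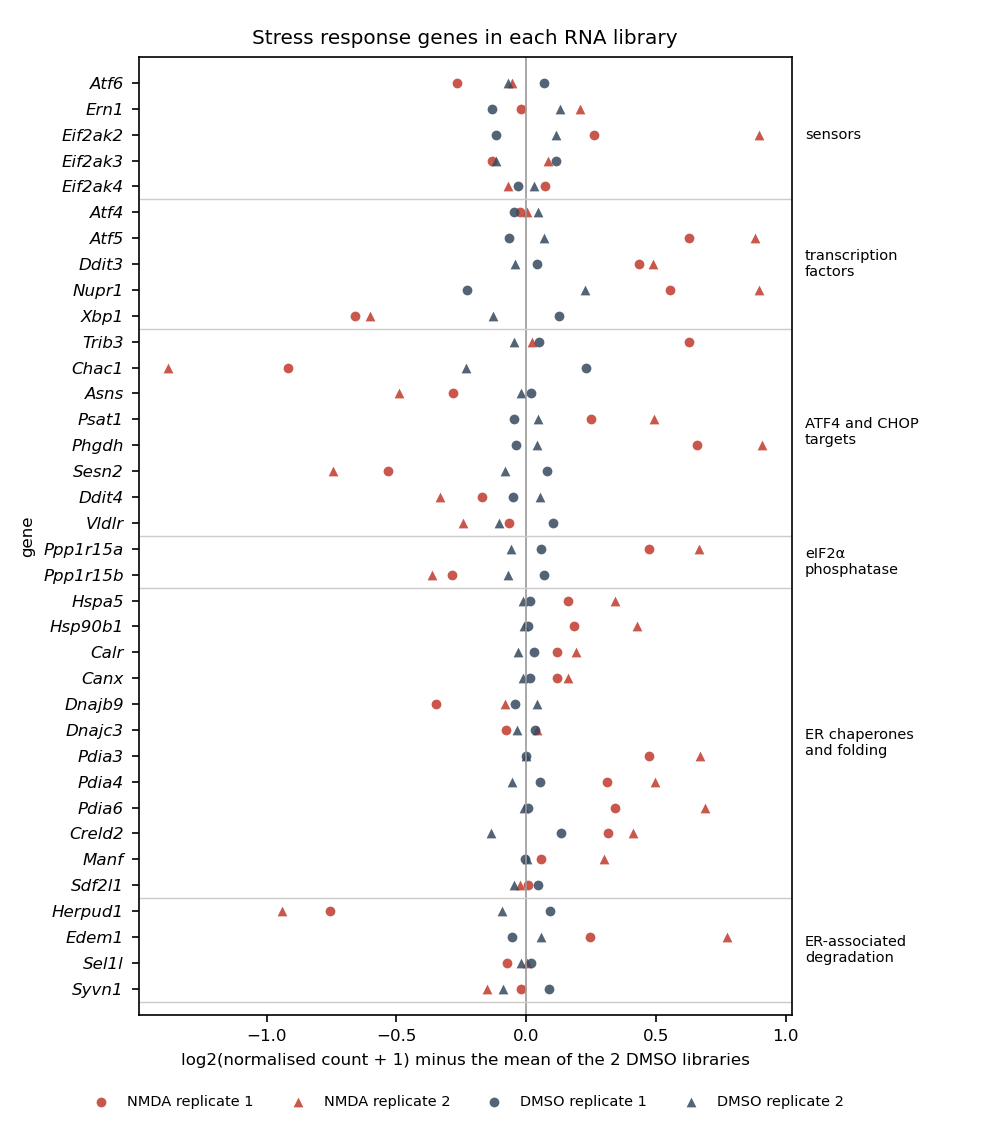
Each row is a gene, and each point is 1 RNA library, plotted as log2(normalised count + 1) minus the mean of the 2 DMSO libraries, with genes grouped by role. NMDA libraries of Herpud1, Chac1, Xbp1 and Sesn2 lie left of both DMSO libraries, and those of Atf5, Phgdh and Ppp1r15a lie right of both, while the NMDA and DMSO points of Atf4 lie on top of each other.

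The sensor genes came first in the pathway and none of the 5 passed the test, which 41.9% of all tested genes did. Eif2ak3, which encodes PERK, had 1019 and 1183 normalised counts in the NMDA libraries, against 1208 and 1030 in the DMSO libraries. Ern1, which encodes IRE1, had 147 and 173 after NMDA, against 136 and 164, and Eif2ak4, which encodes GCN2, had 418 and 379, against 389 and 406. The groups overlapped for all of these genes. The 95% interval of the log2 change was -0.28 to 0.23 for Eif2ak3, -0.28 to 0.47 for Ern1 and -0.25 to 0.25 for Eif2ak4, so a 2-fold difference lies outside each of them. Atf6 had 1010 and 1173 after NMDA, against 1276 and 1160, a log2 change of -0.16 ± 0.10 (SE, n = 2 libraries each; limma adjusted p = 0.237). Eif2ak2, the PKR gene, stood apart, with 184 and 287 after NMDA, against 142 and 166. Its NMDA libraries were both above its DMSO libraries, but 1 NMDA library was much higher than the other. Its log2 change of 0.58 ± 0.21 did not pass (limma adjusted p = 0.0545), although it passed without NMDA replicate 1 (limma adjusted p = 0.00457) and in edgeR on the recovered reads (adjusted p = 0.0488).

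The mRNA of Atf4, the central factor of the integrated stress response, was level between the groups. It had 5907 and 6020 normalised counts in the NMDA libraries, against 5815 and 6195 in the DMSO libraries. Both NMDA values fell between the DMSO values, and the log2 change was -0.01 ± 0.08 with a 95% interval of -0.20 to 0.18. ATF4 is controlled largely through translation of its mRNA, which RNA-seq does not measure.

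Other transcription factor genes of the pathway did change. Atf5, a relative of Atf4 that is also under translational control, had 520 and 620 normalised counts in the NMDA libraries, against 320 and 352 in the DMSO libraries. The groups were well apart, and Atf5 rose by 0.76 ± 0.12 on the log2 scale (limma adjusted p = 0.00221). Ddit3, which encodes the proapoptotic factor CHOP, had 1044 and 1086 after NMDA, against 796 and 750, and the groups did not overlap. It rose by 0.46 ± 0.09 on the log2 scale (limma adjusted p = 0.00423), but its call was lost without DMSO replicate 2 (limma adjusted p = 0.0581). Xbp1, whose spliced form encodes a main activator of ER chaperone and degradation genes, went the other way, with 800 and 831 after NMDA, against 1380 and 1156. Every NMDA library was lower than every DMSO library, and Xbp1 fell by 0.63 on the log2 scale (SE 0.10; limma adjusted p = 0.00243). The table has 1 value per gene, so spliced and unspliced Xbp1 mRNA are counted together. Nupr1, a small stress-induced chromatin protein gene, was low throughout, with 37.8 and 48.2 after NMDA, against 21.6 and 29.9. Its groups did not overlap, but its 95% interval was wide, 0.06 to 1.39, and it did not pass (limma adjusted p = 0.0766).

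**Figure D2:**
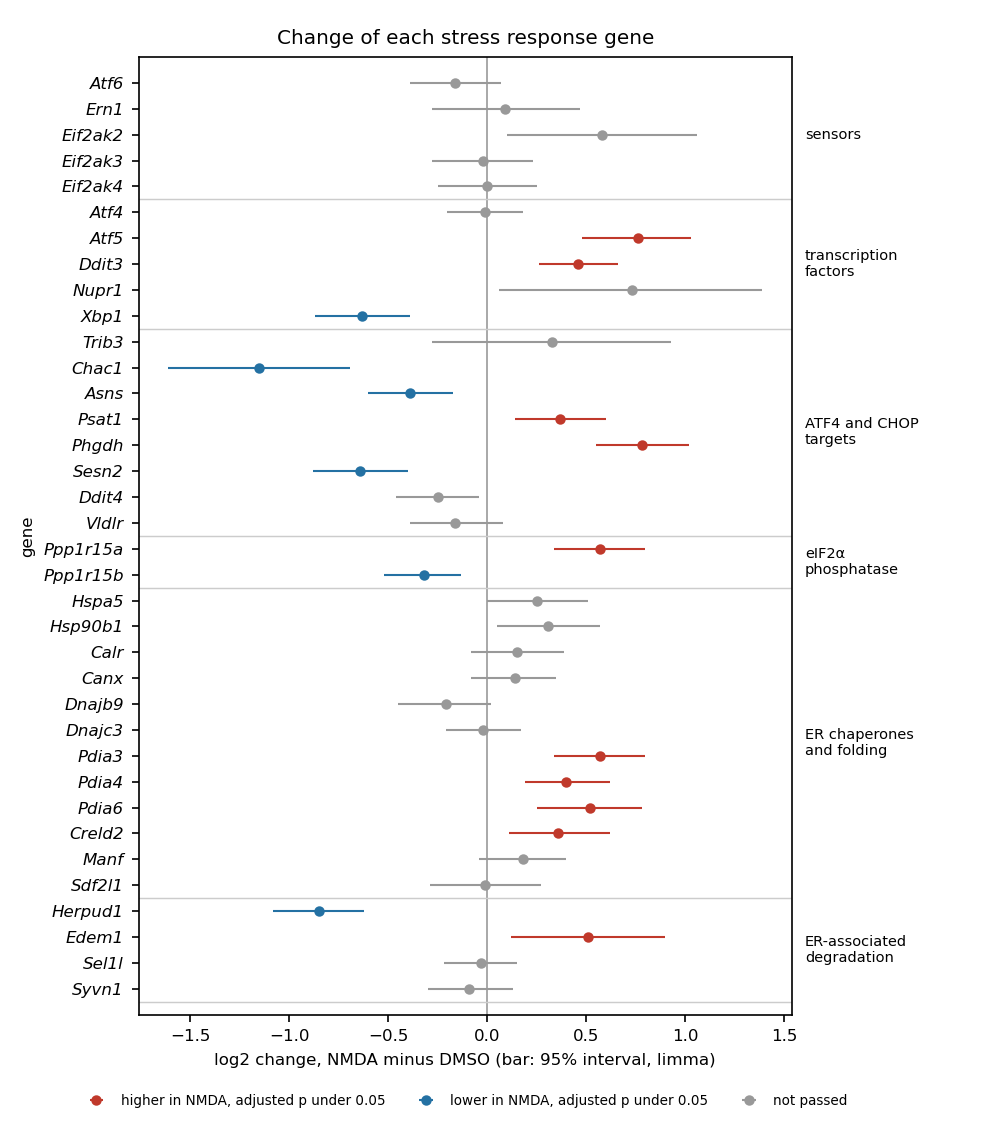
Points are log2 changes (NMDA minus DMSO) of the 36 genes and bars are 95% intervals from limma, coloured by whether the adjusted p is under 0.05. The 10 rises are spread over every role but the sensors, and the 6 falls lie among the transcription factors, the ATF4 and CHOP targets, the phosphatase subunits and ER-associated degradation.

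Genes known as targets of ATF4 and CHOP did not move together. Of 8, 2 rose (25.0%), 3 fell (37.5%) and 3 did not pass, against 20.5% and 21.5% of all tested genes that rose and fell. The median log2 change of the 8 was -0.20. Chac1, an enzyme that breaks down glutathione and a sensitive target of ATF4, had 172 and 125 normalised counts in the NMDA libraries, against 383 and 278 in the DMSO libraries. Both NMDA libraries were under the lower DMSO library, and the NMDA mean was 0.449 times the DMSO mean. The log2 change of Chac1 was -1.15 ± 0.20 (limma adjusted p = 0.00305), the lowest of the 36. Sesn2, a stress-induced inhibitor of mTORC1 signalling, had 759 and 656 after NMDA, against 1162 and 1039. It fell by 0.64 (SE 0.11; limma adjusted p = 0.00248), with the groups far apart. Asns, asparagine synthetase, had 1857 and 1606, against 2287 and 2226, and a log2 change of -0.39 ± 0.09 (limma adjusted p = 0.0116). The call for Asns was lost without DMSO replicate 1 (limma adjusted p = 0.120) or DMSO replicate 2 (0.0791). Trib3, a pseudokinase induced by ATF4 and CHOP, was low, with 67.6 and 44.1 after NMDA, against 44.9 and 41.9. Its groups overlapped, and 1 NMDA library was close to the DMSO values, so no change could be called (log2 change 0.33 ± 0.27, limma adjusted p = 0.354).

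The serine synthesis genes among these targets, Phgdh and Psat1, went up while Asns, Chac1 and Sesn2 went down. Psph, a serine synthesis gene outside the 36, did not pass (log2 change -0.07 ± 0.13, limma adjusted p = 0.675). Phgdh, the first enzyme of serine synthesis, had 1963 and 2337 normalised counts in the NMDA libraries, against 1208 and 1279 in the DMSO libraries. The NMDA mean was 1.73 times the DMSO mean, and the log2 change of 0.78 ± 0.10 (limma adjusted p = 0.00110) was the highest of the 36. Psat1, the next enzyme of that pathway, had 1733 and 2051 after NMDA, against 1412 and 1506, a log2 change of 0.37 ± 0.10 (limma adjusted p = 0.0186). The call for Psat1 was lost without NMDA replicate 2 (limma adjusted p = 0.0659), DMSO replicate 1 (0.170) or DMSO replicate 2 (0.0810). Ddit4, the mTORC1 inhibitor REDD1, had 1523 and 1363, against 1655 and 1779. Its groups did not overlap, but its change of -0.25 ± 0.09 did not pass (limma adjusted p = 0.0539). It passed without NMDA replicate 1 (0.0184). Vldlr, a lipoprotein and reelin receptor gene, overlapped between the groups (1406 and 1243 after NMDA, against 1583 and 1370; limma adjusted p = 0.259).

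The genes of the 2 eIF2α phosphatase subunits changed in opposite directions. Ppp1r15a, the stress-inducible subunit GADD34, had 1010 and 1156 normalised counts in the NMDA libraries, against 757 and 699 in the DMSO libraries. It rose by 0.57 ± 0.10 on the log2 scale (limma adjusted p = 0.00310). Ppp1r15b, the constitutive subunit CReP, had 2897 and 2745 after NMDA, against 3705 and 3363. Neither gene overlapped between the groups, and the log2 change of Ppp1r15b was -0.32 ± 0.09 (limma adjusted p = 0.0173). The call for Ppp1r15b was lost without DMSO replicate 1 (limma adjusted p = 0.213) or DMSO replicate 2 (0.0693) and with quantile normalisation (0.0669).

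Among the 12 ER chaperone and folding genes, 4 rose (33.3%) and none fell, with a median log2 change of 0.21. Of all tested genes, 20.5% rose and 21.5% fell. Pdia3, a disulfide isomerase that works with calreticulin and calnexin on glycoproteins, had 13999 and 16025 normalised counts in the NMDA libraries, against 10077 and 10069 in the DMSO libraries. The 2 DMSO values were almost the same and both NMDA values lay far above them, a log2 change of 0.57 ± 0.10 (limma adjusted p = 0.00313). Pdia6, another disulfide isomerase, had 5946 and 7564 after NMDA, against 4714 and 4665, a change of 0.52 ± 0.12 (0.00869). Pdia4 had 3964 and 4507, against 3317 and 3078, a change of 0.40 ± 0.09 (0.00970). For these isomerases NMDA replicate 2 was the higher library and the groups did not overlap. Creld2, a secreted ER stress-inducible protein gene, had 694 and 742 after NMDA, against 611 and 508, a change of 0.36 ± 0.11 (limma adjusted p = 0.0318). These calls were lost without either DMSO library, where only the NMDA pair sets the spread within groups. That of Creld2 was also lost without NMDA replicate 2 and in DESeq2 (adjusted p = 0.0549). Over all alternatives the log2 changes were 0.47 to 0.67 for Pdia3, 0.31 to 0.51 for Pdia4, 0.34 to 0.69 for Pdia6 and 0.23 to 0.50 for Creld2. The rises in this group of 12 thus numbered 0 without either DMSO library, when 4 (without replicate 1) and 3 (without replicate 2) were higher at an unadjusted p under 0.05, and 7 without NMDA replicate 1.

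The classic ER chaperones were higher after NMDA by small amounts that did not pass. Hspa5, which encodes BiP, the Hsp70 chaperone that holds the sensors inactive, had 24569 and 27864 normalised counts in the NMDA libraries, against 22191 and 21761 in the DMSO libraries. Both NMDA libraries were above both DMSO libraries, but they differed more between themselves than the DMSO libraries did, and the log2 change of 0.25 ± 0.11 did not pass (limma adjusted p = 0.101). Hsp90b1, the ER Hsp90 chaperone GRP94, had 20489 and 24219, against 18111 and 17928, a change of 0.31 ± 0.11 (limma adjusted p = 0.0603). Without NMDA replicate 1 both passed (limma adjusted p of 0.0113 for Hspa5 and 0.00416 for Hsp90b1), and in DESeq2 on the recovered reads they also did (0.0269 and 0.0101). The lectin chaperones Calr (20526 and 21637 after NMDA, against 19352 and 18513) and Canx (16661 and 17152, against 15502 and 15209) had log2 changes of 0.15 ± 0.10 and 0.14 ± 0.09, with groups that did not overlap and adjusted p values of 0.248 and 0.270. Manf, a secreted ER protein with neurotrophic activity, had 1906 and 2253 after NMDA, against 1829 and 1836. Its change of 0.18 ± 0.10 passed only without NMDA replicate 1 (limma adjusted p = 0.0185, against 0.173 with all libraries).

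The BiP cochaperone genes Dnajb9, Dnajc3 and Sdf2l1 showed no call. Dnajb9, the cochaperone ERdj4 and a target of XBP1, had 1082 and 1302 normalised counts after NMDA, against 1338 and 1419 in DMSO, and its log2 change of -0.21 ± 0.10 did not pass (limma adjusted p = 0.132). It passed without NMDA replicate 2 (0.0231). Dnajc3, the cochaperone p58IPK, had 1708 and 1855, against 1847 and 1762. Sdf2l1, which binds BiP with its cochaperones, had 234 and 229, against 240 and 225. The last 2 overlapped between the groups, with 95% intervals of -0.21 to 0.17 and -0.29 to 0.27. Together the 12 chaperone and folding genes took 0.632% and 0.710% of all normalised counts in the NMDA libraries, against 0.549% and 0.540% in the DMSO libraries. Beside this stand the summed fibroblast markers, which were 263721 and 351573 after NMDA, against 143263 and 132564, with NMDA replicate 2 the higher library in both sums. Any link between these sums was not tested.

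Promoters of chaperone and folding genes and of Syvn1, an ER-associated degradation gene, are shown because they carry the ER stress response element (ERSE). It is the sequence through which ATF6 with NF-Y, and XBP1, are known to act. Promoter sequences covered 250 bases before to 50 bases after the start of the gene (RefSeq, GRCm38.p6) and were found for 33 of the 36 genes. Atf6, Ppp1r15b and Manf had no such sequence, so their promoters were not searched. The letters CCAAT, any 9 bases and CCACG, on either strand, were present in 8 of the 33, but in 0.119% of all 32851 promoters of that length. Capitals mark the fixed letters of the element, and each line runs 5′ to 3′ on the strand of the gene:
Hspa5 at chr2:34772019-34772049 (+ strand): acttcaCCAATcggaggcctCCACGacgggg
Hsp90b1 at chr10:86705632-86705662 (- strand): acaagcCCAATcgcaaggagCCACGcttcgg
Calr at chr8:84847069-84847099 (- strand): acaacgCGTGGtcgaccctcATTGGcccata
Canx at chr11:50325794-50325824 (- strand): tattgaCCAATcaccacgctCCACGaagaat
Dnajc3 at chr14:118937821-118937851 (+ strand): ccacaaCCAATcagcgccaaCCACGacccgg
Pdia6 at chr12:17266485-17266515 (+ strand): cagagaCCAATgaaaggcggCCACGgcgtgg
Creld2 at chr15:88819514-88819544 (+ strand): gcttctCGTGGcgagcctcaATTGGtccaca
Syvn1 at chr19:6046526-6046556 (+ strand): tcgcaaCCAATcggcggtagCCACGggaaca
Hsp90b1 has a second match on the other strand of the same promoter, and Calr and Creld2 carry the element on the strand opposite to the gene. Of these 8 genes, Pdia6 and Creld2 rose, none fell and 6 did not pass, with a median log2 change of 0.20. Over all 18 tested genes with the element, these 8 included, 2 rose and 2 fell, against 20.5% and 21.5% of all tested genes. A match is a description of letters and does not show that a factor was bound in these cells.

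The ER-associated degradation genes, whose products take misfolded proteins out of the ER to the proteasome, held the clearest fall. Herpud1, an ER membrane protein of that machinery and a strong target of ER stress factors, had 1949 and 1717 normalised counts in the NMDA libraries, against 3513 and 3090 in the DMSO libraries. The NMDA mean was 0.555 times the DMSO mean with the groups far apart, and Herpud1 fell by 0.85 on the log2 scale (SE 0.10; limma adjusted p = 8.25e-04), the smallest adjusted p of the 36 genes. Edem1, a lectin that extracts glycoproteins for degradation, had 338 and 488 after NMDA, against 274 and 296. It rose by 0.51 ± 0.17 (limma adjusted p = 0.0395), and NMDA replicate 2 was far above the other 3 libraries. Its change was 0.25 without that library (limma adjusted p = 0.193) and 0.78 without NMDA replicate 1, and its call was also lost without DMSO replicate 1 (0.211) or DMSO replicate 2 (0.115) and with quantile normalisation (0.0779). Sel1l and Syvn1, the adaptor and the ubiquitin ligase of the central degradation complex, overlapped between the groups. Sel1l had 2460 and 2595 after NMDA, against 2621 and 2552, and Syvn1 had 1444 and 1321, against 1558 and 1380, with 95% intervals of -0.22 to 0.15 and -0.30 to 0.13.

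The 2 genes with the lowest log2 changes, Herpud1 and Chac1, share a short element in their promoters. The letters TGATGCAA or their reverse complement TTGCATCA, the core of the C/EBP-ATF response element that ATF4 is known to bind, were in 4 of the 33 promoters, namely those of Chac1, Herpud1, Nupr1 and Vldlr, and in 0.895% of all promoters. Herpud1 also holds the related element ERSE-II, which is ATTGG, any 1 base and CCACG on either strand, found in 0.0365% of all promoters and in no other of the 33, and the 2 elements do not overlap. Each sequence gives the 250 bases before the start of the gene on its own strand, with the fixed letters of both elements in capitals:
Herpud1 at chr8:94386179-94386428 (+ strand): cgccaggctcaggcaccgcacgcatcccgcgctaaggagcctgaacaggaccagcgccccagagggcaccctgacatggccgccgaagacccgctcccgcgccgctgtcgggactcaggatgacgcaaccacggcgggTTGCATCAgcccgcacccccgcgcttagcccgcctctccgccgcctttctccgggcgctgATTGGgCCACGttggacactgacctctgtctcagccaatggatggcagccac
Chac1 at chr2:119350992-119351241 (+ strand): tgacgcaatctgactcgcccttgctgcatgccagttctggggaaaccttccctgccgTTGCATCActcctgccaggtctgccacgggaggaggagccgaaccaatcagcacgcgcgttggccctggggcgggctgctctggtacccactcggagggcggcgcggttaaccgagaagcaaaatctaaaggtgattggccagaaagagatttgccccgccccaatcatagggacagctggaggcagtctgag
The other 2 matches, in their short surroundings, were these:
Nupr1 at chr7:126625567-126625586 (- strand): gccagaTTGCATCAgacagg
Vldlr at chr19:27216814-27216833 (+ strand): caatagTTGCATCAgcgctc
Of the 4 genes, Herpud1 and Chac1 fell. Nupr1 and Vldlr did not pass, with log2 changes of 0.73 and -0.16. Over all 73 tested genes with it, these 4 included, 14 rose and 18 fell, with a median log2 change of 0.01. Among all tested genes, with or without the element, 20.5% rose and 21.5% fell.

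**Figure D3:**
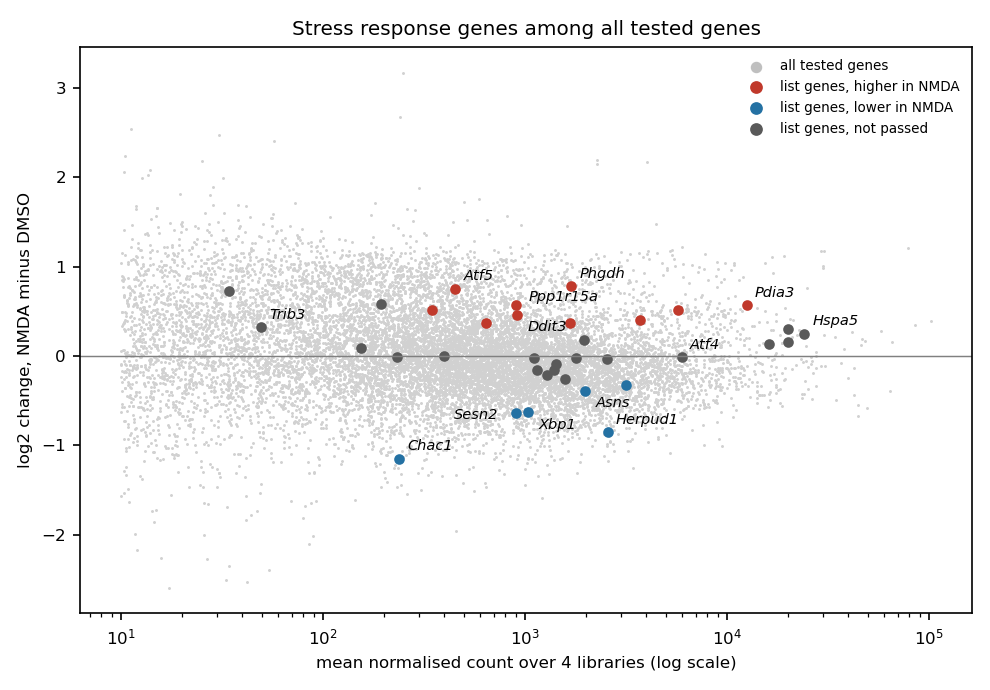
Grey points are the 13888 tested genes, placed by mean normalised count over the 4 libraries (log axis) and log2 change (NMDA minus DMSO), and larger points are the 36 stress genes coloured by call. The stress genes lie within the cloud of all genes, with Chac1 and Herpud1 at the lower edge of the list and Phgdh and Atf5 at its upper edge.

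Of the 87 tested genes in 6 further lists of the same pathways, 29 rose and 15 fell, or 33.3% and 17.2%, against 20.5% and 21.5% of all tested genes. Differences between these lists were not tested. Of the 25 listed amino acid transport, amino acid synthesis and transfer RNA synthetase genes, 10 fell (40.0%), 2 rose and 13 did not pass. ATF4 drives many of these genes, and their median log2 change was -0.20. The 2 that rose were Pck2 and Gpt2, with log2 changes of 0.68 ± 0.17 and 0.35 ± 0.10 (limma adjusted p of 0.0141 and 0.0226). Both calls were lost without NMDA replicate 2 or DMSO replicate 2. Cars, a cysteinyl transfer RNA synthetase gene, had 929 and 869 normalised counts in the NMDA libraries, against 1640 and 1328 in the DMSO libraries, and fell by 0.72 (SE 0.11; limma adjusted p = 0.00199). The cationic amino acid transporter gene Slc7a1 fell by 0.81 (SE 0.13), with 1372 and 1115 after NMDA, against 2396 and 1959. Iars and Yars, which encode other transfer RNA synthetases, had log2 changes of -0.66 ± 0.11 and -0.50 ± 0.10. Among the 36, the amino acid synthesis gene Asns fell as well, whereas Phgdh and Psat1 rose. In this list the falls numbered 3 without DMSO replicate 1, when Yars lost its call (limma adjusted p = 0.0917), and 5 without DMSO replicate 2.

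The genes of ER folding, protein translocation and degradation outside the 36 had 19 of 30 up (63.3%), none down and 11 that did not pass. Their median log2 change was 0.37. The shares over all tested genes were 20.5% up and 21.5% down. Sec61b and Sec61g, subunits of the channel through which new proteins enter the ER, had log2 changes of 0.88 ± 0.15 and 0.65 ± 0.10 (limma adjusted p of 0.00283 and 0.00186). Sec61b had 651 and 720 normalised counts after NMDA, against 318 and 436 in DMSO. Spcs3, a signal peptidase subunit, had 1081 and 1173, against 643 and 611, a change of 0.84 ± 0.09 (limma adjusted p = 7.35e-04). Ssr2, a subunit of the translocon-associated complex, rose by 0.53 ± 0.09, a call lost without DMSO replicate 1 (limma adjusted p = 0.0580). For each of the 4 genes the groups did not overlap. The rises in this list numbered 20 and 15 when NMDA replicate 1 or 2 was left out, in that order, and 3 and 7 when DMSO replicate 1 or 2 was. Its summed level was 69504 and 78269 after NMDA, against 57192 and 56683. The fibroblast marker sums given above were also higher in NMDA replicate 2, and any link between them was not tested.

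Of the 6 tested genes of other ER membrane sensors and their proteases, 3 rose and none fell, and 5 rose with quantile normalisation. The shares over all tested genes were 20.5% up and 21.5% down. With quantile normalisation 2571 of all 13888 tested genes rose and 2815 fell. Creb3l1 (OASIS) and Creb3l2, relatives of ATF6 known for driving secretory and collagen-producing programmes, had log2 changes of 1.05 ± 0.12 and 0.99 ± 0.13 (limma adjusted p of 8.02e-04 and 0.00116). Creb3l1 had 880 and 1079 normalised counts in the NMDA libraries, against 499 and 443 in the DMSO libraries, and Creb3l2 had 265 and 261, against 132 and 132. Beside them, Atf6 itself did not pass. Mbtps1, the site-1 protease that cuts ATF6, rose by 0.30 ± 0.10 (limma adjusted p = 0.0451), a call lost when either DMSO library (limma adjusted p of 0.0679 without replicate 1 and 0.366 without replicate 2) or NMDA replicate 2 (0.140) was left out. Among 6 tested regulators downstream of ATF4, 3 rose and none fell, against the same 20.5% and 21.5% of all tested genes. Eif4ebp1, a translation inhibitor, had 236 and 269 after NMDA, against 116 and 108, a change of 1.17 ± 0.15 (limma adjusted p = 9.98e-04). Cebpb, a partner of ATF4 on DNA, had 47.4 and 55.6, against 22.4 and 25.1, a change of 1.08 ± 0.26, and Jdp2 a change of 0.48 ± 0.12. The rises among these regulators numbered 1 without NMDA replicate 2, DMSO replicate 1 or DMSO replicate 2, where Eif4ebp1 alone of the 3 held its call, and Cebpb also did not pass in DESeq2 (adjusted p = 0.0663).

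Of 12 genes of the eIF2 machinery, 4 fell and 1 rose, so 41.7% were called, close to the 41.9% of all tested genes. In DESeq2 the falls numbered 2. Eif2ak1, which encodes the eIF2α kinase HRI, had 615 and 681 normalised counts in the NMDA libraries, against 900 and 921 in the DMSO libraries. It fell by 0.49 (SE 0.09; limma adjusted p = 0.00433), while the 3 eIF2α kinase genes among the 36 did not pass; the difference was not tested. Eif2b4, a subunit of the exchange factor that recharges eIF2, and Eif2s1, eIF2α itself, had log2 changes of -0.41 ± 0.09 and -0.28 ± 0.08. Impact, an inhibitor of GCN2, rose by 0.45 ± 0.14, with 3057 and 2241 after NMDA, against 2075 and 1774. The calls of Eif2ak1, Eif2s1 and Impact were lost without either DMSO library, that of Eif2b4 without DMSO replicate 1 and that of Impact also without NMDA replicate 1. Eif2s1 also did not pass with quantile normalisation (0.0750) or in DESeq2 (0.0732). With these libraries left out the falls in this list numbered 0 without DMSO replicate 1 (limma, with 4 at an unadjusted p under 0.05) and 1 without DMSO replicate 2.

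**Figure D4:**
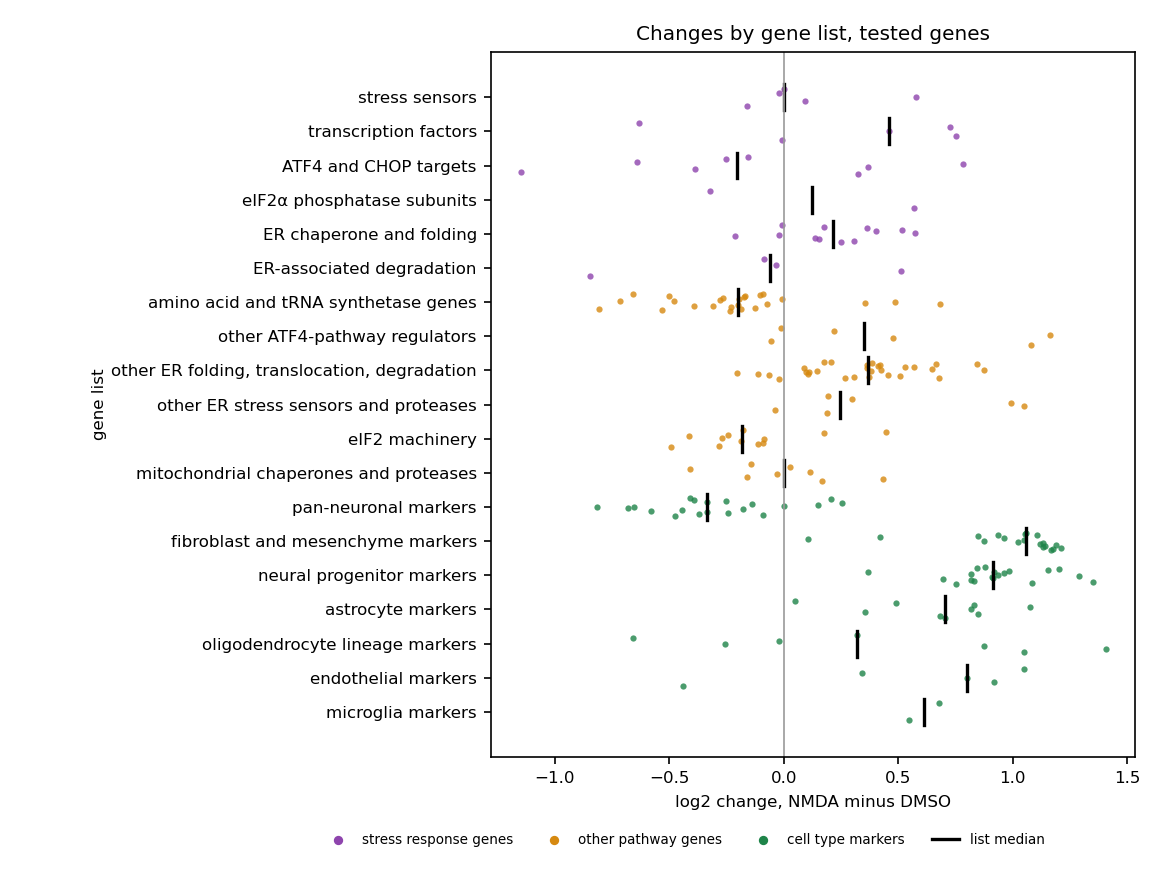
Each point is the log2 change (NMDA minus DMSO) of 1 tested gene, by list, and the black bar is the list median. The amino acid and transfer RNA synthetase genes centre at -0.20 and the other ER folding genes at 0.37, while fibroblast markers centre at 1.06 and pan-neuronal markers at -0.33.

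The size of the changes differed between the NMDA libraries. Among the 25 stress genes whose groups did not overlap, NMDA replicate 2 lay farther from the DMSO mean than NMDA replicate 1 for 23 genes, or 92.0%, against 70.2% of all tested genes with no overlap. In the same library the fibroblast and progenitor sums were the highest and the pan-neuronal sum the lowest. Leaving it out, 7 of the 36 rose and 7 fell, and leaving out NMDA replicate 1, 14 rose and 7 fell. In both these fits only the DMSO pair, which varied less than the NMDA pair, set the spread within groups. Fewer of the 36 were called when either DMSO library was left out, and so were fewer of all tested genes. The smaller list counts given above for those fits thus stand beside a smaller background. With no filter on low values limma called none of the 36 (6 higher and 6 lower at an unadjusted p under 0.05) and none of all genes. Under the 12 other alternatives, 7 of the 16 called genes kept their call throughout, namely the rises of Atf5, Phgdh and Ppp1r15a and the falls of Xbp1, Chac1, Sesn2 and Herpud1.

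**Figure D5:**
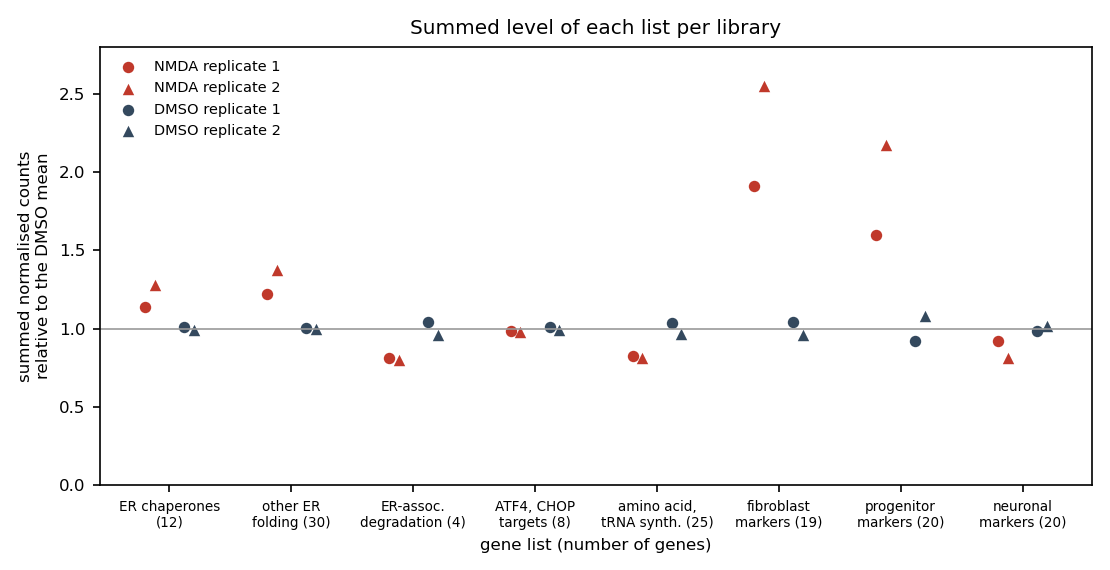
Points are the summed normalised counts of each list in each library, divided by the mean of the 2 DMSO libraries for that list, with the number of genes in brackets. ER chaperone and other ER folding sums lie above 1 in both NMDA libraries and higher in NMDA replicate 2, as do fibroblast and progenitor marker sums. ER-associated degradation and amino acid gene sums lie under 1. Of the 4 ER-associated degradation genes only 1, Herpud1, was called lower and 1, Edem1, higher, with a median log2 change of -0.06.

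Some of the genes overlap neighbours in the RefSeq annotation (GRCm38.p6), 9 of them a protein-coding gene, and the labels do not say whether counting used strand. Ddit3 overlaps Mars, which did not pass (log2 change -0.17 ± 0.11), and Mbd6, which rose by 0.32 ± 0.09 (limma adjusted p = 0.0246). Atf5 overlaps Nup62, which fell by 0.33 (SE 0.09), the direction opposite to that of Atf5. Tulp2 and Atp6v1c2, which overlap Ppp1r15a and Pdia6, had at most 3.59 and 5.27 normalised counts in any library.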

How the data were processed

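RNA of day 10 neurons was measured in 2 NMDA and 2 DMSO libraries. Per the submitters' processing notes, reads were handled with TopHat, Bowtie, HTSeq and DESeq and the genome build mm9 is named; their versions, roles and the annotation are not given there. The authors deposited a signal per gene, normalised read counts with 1 column per library and no pooling. In each library these values step by a fixed amount, the worth of a single read, so reads were recovered (99.973% to 100% of values whole within 0.0051), 15008112 to 20149813 per library. P-values, SEs and intervals measure only the spread between libraries, which the labels do not say came from separate cultures. For each gene limma borrows part of that spread from the other tested genes (8.47 total degrees of freedom).

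The 13888 genes whose normalised counts averaged 10 or more were compared on log2(value + 1), a scale that understates the change of low genes, by limma with a mean-variance trend (version 3.58.1 in R 4.3.3). The model held group alone, tests were 2-sided and p was Benjamini-Hochberg adjusted. All 36 stress genes passed that filter, as did 87 of 90 further pathway genes (Gdf15, Fgf21 and Ern2 did not). Alternatives were pseudocounts of 0.5 and 5, other filters, quantile normalisation, a replicate block, each library left out, and count tests of the recovered reads in edgeR 4.0.16 and DESeq2 1.42.0; TMM scaling was added after seeing the data. Over all tested genes edgeR called 2905 rises and 2877 falls, DESeq2 2260 and 2324, and limma 2845 and 2979. Where a library is left out, the lone sample is assumed to vary like the other group. The log2 difference between replicates had an SD over genes of 0.339 for NMDA and 0.265 for DMSO. Without a DMSO library the test rests on the more variable pair, so a call can be lost there with little change in effect size. Without an NMDA library it rests on the less variable DMSO pair, so a call can be gained there in the same way. All 36 genes are named, and of each further list up to 4 with the smallest p, with Psph, Pck2 and Gpt2 named besides. Members and lists were chosen with earlier results of these data known. Symbols are those of the file, so Vimp is H47 and Map2 is Mtap2 there. Some markers stand in 2 lists.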

Additional observations from a re-analysis of the deposited data

How the results depend on the processing

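With no filter on low values limma called none of the results: 0 rises and 0 falls among the 36 genes (6 and 6 at an unadjusted p under 0.05), 0 and 0 among the further pathway genes (31 and 19) and 0 and 0 among all genes (2980 and 3303); the cause was not tested. On filtered genes edgeR gave 12 rises and 6 falls among the 36, and DESeq2 11 and 6. Over all 13888 tested genes edgeR gave 2905 rises and 2877 falls, and DESeq2 2260 and 2324. Quantile normalisation with limma gave 2571 rises and 2815 falls over the same genes. Leaving out each library in turn gave 3 to 14 rises and 4 to 7 falls among the 36 genes, 7 to 30 rises and 3 to 14 falls among the further pathway genes, and 1069 to 3033 rises and 915 to 3334 falls among all genes. These 3 totals stayed within 1.5 times of their counts under the other alternatives. Among the smaller lists, quantile normalisation left 0 falls of 2 phosphatase subunit genes and 0 rises of 4 ER-associated degradation genes (1 each at an unadjusted p under 0.05), and 5 rises of 6 among other ER stress sensors and proteases; DESeq2 gave 2 falls of 12 in the eIF2 machinery. With the replicate block 1 of the 5 stress sensor genes rose, and 1 gene each of the ER chaperones and the other ER folding genes fell, where limma called 0; edgeR gave 1 stress sensor rise. No called gene among the 36 changed sign under any alternative. Replicate numbers are shared only as numbers between the groups (correlation of replicate differences 0.343 over 13888 genes). With the replicate block the 36 genes gave 13 rises and 8 falls, adding Eif2ak2, Nupr1, Ddit4, Hsp90b1 and Dnajb9. In that fit 3685 of all 13888 tested genes rose and 3782 fell. Trib3 and Nupr1 had the lowest mean counts of the 36.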

Other observations

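Of the mitochondrial chaperone and protease genes, which answer to protein stress in mitochondria, 8 were tested. Of these, 1 rose and 1 fell, or 25.0% called against 41.9% of all tested genes, and the median log2 change was 0.00. Hspe1, the mitochondrial cochaperonin, had 2141 and 2278 normalised counts in the NMDA libraries, against 1615 and 1654 in the DMSO libraries, and rose by 0.43 ± 0.08 (limma adjusted p = 0.00391). Its call was lost without DMSO replicate 1 (limma adjusted p = 0.0687). Clpx, the unfoldase of a matrix protease, had 525 and 587, against 751 and 723, and fell by 0.41 (SE 0.10; limma adjusted p = 0.0120). The call for Clpx was lost without DMSO replicate 1 (limma adjusted p = 0.119) or DMSO replicate 2 (0.0728). Neither gene overlapped between the groups.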
